A study of Thermothelomyces thermophilus with 14 samples.

Results

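The gene cre-1 (MYCTH_2310085) of the thermophilic filamentous fungus Myceliophthora thermophila was followed as 1 gene of the 9110 in the deposited count table, chosen by its locus identifier, in all 14 RNA sequencing libraries. The mycelium was wild type (ATCC 42464), was pregrown, and was sampled 4 h after transfer to Vogel's salts with a new carbon source. Plate cultures of 5 mL received 2% cellobiose (G2), 2% xylobiose (X2), 2% of each disaccharide (G2X2), 1% glucose with 1% xylose (GX) or no carbon source (NoCarbon2). Flask cultures of 100 mL received 1% Avicel, a microcrystalline cellulose, with 1% xylan (XA), or 2% xylan alone (Xylan). Each of the 7 groups held 2 libraries, and G2X2 held more sugar in total than the other plate groups. No label says that the replicates were separate cultures, and the p-values therefore reflect the spread between libraries, part or all of which may be technical.

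CRE-1, called CreA in Aspergillus, is a zinc finger protein that represses genes for the use of less favoured carbon sources while glucose or another preferred sugar is present, a control known as carbon catabolite repression. In Neurospora crassa and Trichoderma reesei, loss of this repressor releases genes for cellulases, xylanases and sugar transporters. Its activity is known to be set partly through the protein, by phosphorylation and by movement in and out of the nucleus, which RNA counts do not measure.

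The libraries held 17992946 to 25254924 counts assigned to genes. Levels are CPM, counts corrected for library size by the trimmed mean of M values (TMM), whose factors ran from 0.73 to 1.20 and were lowest in the 2 X2 libraries and the 2 Xylan libraries. Replicates correlated across genes at r = 0.965 to 0.992, and no replicate pair agreed within sampling noise, so each library was counted as a sample. Changes are log2 fold changes ± SE from edgeR's quasi-likelihood test over 8567 genes, and a change was called where the Benjamini-Hochberg adjusted p over those genes was under 0.05.

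cre-1 was abundant in every library, with 5995 to 12609 counts. Its level ran from 289 to 668 CPM with a median of 409 CPM, and 95.1% of the genes tested had a lower mean CPM. The highest group mean was 2.04 times the lowest, a log2 range of 1.03, while the median gene had a log2 range of 1.37 over the 7 groups. Across all 7 groups the level differed (quasi-likelihood F = 5.48, adjusted p = 0.00946), as it did for 79.3% of the genes tested. Across the 5 plate groups it differed as well (F = 6.08, adjusted p = 0.0129), as did 64.7% of genes. In these tests 43.7% and 54.6% of genes had a smaller F. Leaving out NoCarbon2 replicate 1 or replicate 2 gave F = 12.6 or 11.1 over the 7 groups and 14.1 or 12.8 over the plate groups. With libraries scaled by their total counts only, neither test was passed (adjusted p = 0.0996 for the 7 groups and 0.0693 for the plate groups), and the plate test was not passed without X2 replicate 1 (adjusted p = 0.0763).

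Xylobiose gave the highest level and the disaccharide mixture the lowest. cre-1 stood at 668 and 583 CPM in the X2 libraries, a mean of 626 ± 60.1 CPM (SD, n = 2, as for all group means). The Xylan flasks came next with 644 and 526 CPM (585 ± 82.8). With TMM scaling the highest levels were thus those of the groups that held xylose polymers or oligomers and no other added sugar. On total counts only, the Xylan libraries stood at 531 and 434 CPM and overlapped the G2 libraries, at 468 and 498 CPM. The highest library was then NoCarbon2 replicate 1, at 585 CPM. G2 libraries had 408 and 434 CPM (421 ± 17.9).

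The NoCarbon2 libraries had 517 and 289 CPM (403 ± 161), the widest replicate gap of the 7 groups. XA libraries had 409 and 371 CPM (390.2 ± 27.0). GX libraries had 304 and 346 CPM (325 ± 29.6), and G2X2 libraries 298 and 315 CPM (306 ± 11.7). No neighbouring pair of plate groups in this order passed the test: the adjusted p was 0.0784 for X2 versus G2, 0.879 for G2 versus NoCarbon2, 0.374 for GX versus NoCarbon2 and 0.818 for G2X2 versus GX. Flask and plate groups differ in vessel and volume as well as carbon source, so the effect of vessel and carbon source on the order between them cannot be told apart. In bulk RNA a lower CPM can come from fewer cells with the transcript or from less transcript per cell, and these cannot be told apart.

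**Figure D1:**
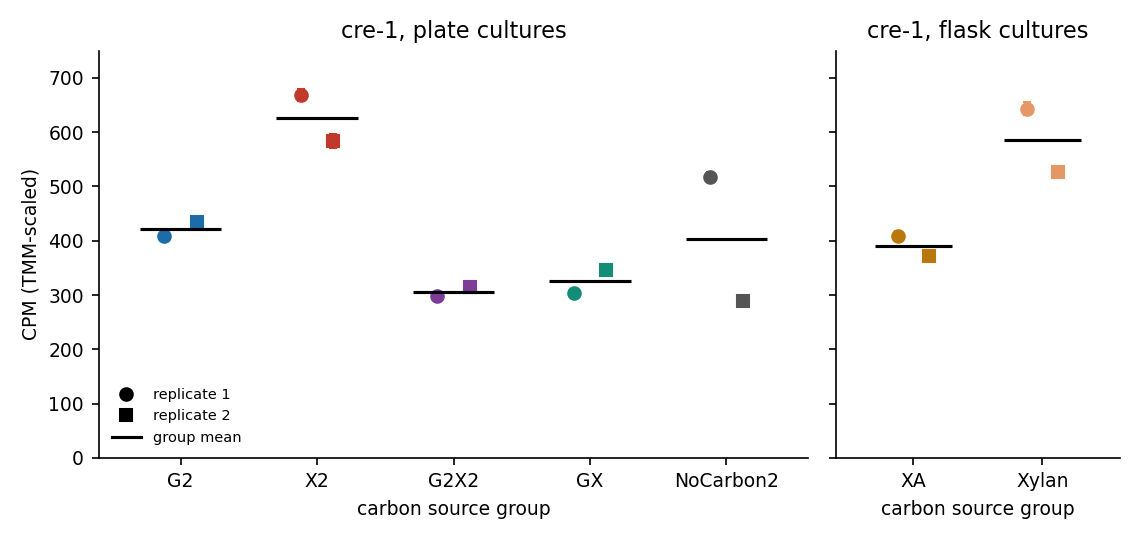
cre-1 level (CPM after TMM scaling, vertical axis from 0) in each library of the 5 plate groups (left) and the 2 flask groups (right). Circles and squares are replicates 1 and 2, bars are group means, and the 95% Poisson counting intervals are about as small as the symbols. X2 and Xylan libraries lie at 526 CPM and above, and the 2 NoCarbon2 libraries lie at 517 and 289 CPM.

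The 95% Poisson interval of the lowest library, NoCarbon2 replicate 2, was 283 to 296 CPM. The intervals of the 2 replicates did not overlap in any of the 7 groups, but in G2X2 they nearly touched, at 291 to 306 and 307 to 322 CPM. These intervals cover counting error only, since reads without molecular identifiers are not independent molecules. The 2 NoCarbon2 libraries differed 1.79-fold at cre-1, or 0.84 on the log2 scale, a wider gap than in 87.4% of the 5859 genes with a mean of at least 20 CPM in all 14 libraries. In the G2X2 pair the gap was 0.08, wider than in 16.5% of those genes. All comparisons with NoCarbon2 rest on that pair. The model estimates the spread of each gene over all groups together, so this pair also enters the SE of the other comparisons.

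Adding cellobiose to xylobiose addressed whether the cellulose-derived disaccharide changes the response to the xylan-derived one. G2X2 also held more sugar in total than X2, so the added cellobiose and the larger sugar dose cannot be told apart. cre-1 was 298 and 315 CPM in the G2X2 libraries, against 668 and 583 CPM in the X2 libraries. The G2X2 libraries lay wholly below the X2 libraries; groups without overlap, in either order, made up 62.2% of genes. The level was lower in G2X2 by edgeR's test (log2 fold change -1.03 ± 0.24, 95% interval -1.55 to -0.51, adjusted p = 0.00799), in a comparison where 30% of genes were called. The call was lost without G2X2 replicate 1 (-0.99, adjusted p = 0.0558). With total counts only the difference was -0.75 and was called (adjusted p = 0.0299).

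Xylobiose against the monosaccharides compared an oligomer of xylose with free glucose plus xylose. cre-1 was 668 and 583 CPM in the X2 libraries, against 304 and 346 CPM in the GX libraries, and the groups did not overlap, as for 71.8% of genes. The level was higher in X2 (0.95 ± 0.24, 95% interval 0.42 to 1.47, adjusted p = 0.00868), in a comparison where 38.3% of genes were called. This call was lost without GX replicate 1 (0.86, adjusted p = 0.0714). With total counts only the difference was 0.38 (adjusted p = 0.21).

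The scaling matters here because the X2 libraries had TMM factors of 0.86 and 0.73, against 1.20 and 1.18 for GX. On total counts cre-1 stood at 574 and 428 CPM in X2, against 364 and 408 CPM in GX, so the X2 libraries were still above the GX libraries. Leaving out the TMM step moved the median log2 fold change of all genes tested by -0.58 for X2 versus GX, by -0.54 for X2 versus NoCarbon2, by -0.53 for X2 versus G2, by 0.29 for G2X2 versus X2, by 0.27 for XA versus Xylan and by 0.30 for the departure from additivity. Relative to the median gene, cre-1 differed by 0.94 with TMM and 0.95 with total counts for X2 versus GX, by -1.04 and -1.05 for G2X2 versus X2 and by -0.60 and -0.60 for XA versus Xylan. A change of scaling shifts all genes of a comparison by nearly the same amount. The agreement of these values was therefore fixed in advance and does not show which scaling is right. Upper-quartile scaling moved the median by -0.11 for X2 versus GX and by -0.14 for G2X2 versus GX, and no call on cre-1 changed with it.

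**Figure D2:**
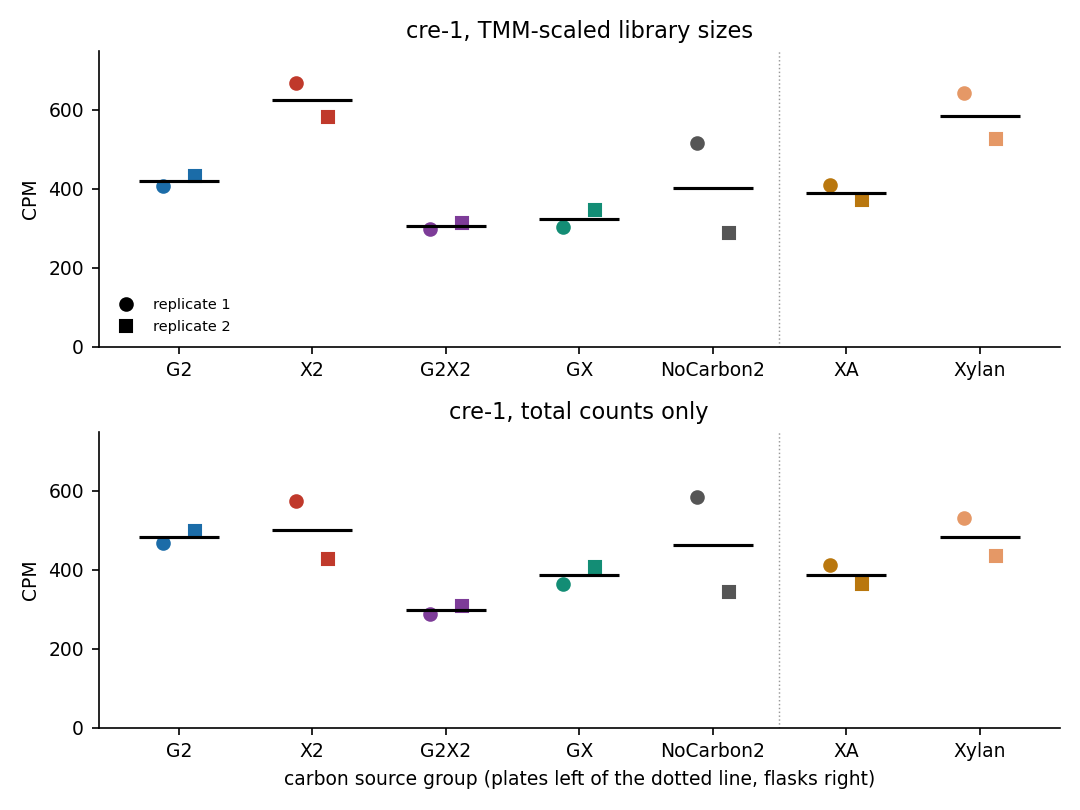
cre-1 level (CPM, vertical axes from 0) in each library with TMM-scaled library sizes (top) and with total counts only (bottom). Circles and squares are replicates 1 and 2, bars are group means. The X2 libraries stand at 668 and 583 CPM with TMM and at 574 and 428 CPM with total counts, and the G2X2 libraries are the lowest plate pair by mean in both panels.

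Each sugar medium on plates, cellobiose or xylobiose alone and the 2 mixtures, was compared with no carbon, and none of the 4 gave a called change of cre-1. With xylobiose the level was 668 and 583 CPM, against 517 and 289 CPM in NoCarbon2, a difference of 0.64 ± 0.24 that narrowly missed the threshold (adjusted p = 0.0523, where 38.6% of genes were called). The X2 libraries were both above the NoCarbon2 libraries, as 62.5% of genes had groups that did not overlap. The difference passed the test once NoCarbon2 replicate 1 was left out (1.11, adjusted p = 0.00218) and with DESeq2 (0.62, adjusted p = 0.0342), and on total counts it was 0.11 (adjusted p = 0.727).

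Cellobiose gave 0.06 (95% interval -0.45 to 0.58, adjusted p = 0.879; 26.5% of genes called), and its direction turned without NoCarbon2 replicate 2 (-0.29). The mixture gave -0.40 (-0.91 to 0.12, adjusted p = 0.212; 38.2% of genes called) and glucose with xylose gave -0.31 (-0.83 to 0.21, adjusted p = 0.374; 24% of genes called). Without NoCarbon2 replicate 1 these 2 differences were 0.08 and 0.17, and without NoCarbon2 replicate 2 they were -0.75 and -0.67 and were called (adjusted p = 0.0156 and 0.0339). These 4 comparisons share the NoCarbon2 libraries.

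The disaccharides, one built of glucose and the other of xylose, were also compared directly at equal mass and time. cre-1 was 668 and 583 CPM in X2, against 408 and 434 CPM in G2, with no overlap, as for 70.9% of genes. The difference was 0.57 ± 0.24 (95% interval 0.05 to 1.09, adjusted p = 0.0784; 37.5% of genes called). It was called without either NoCarbon2 library (0.57, adjusted p = 0.0187 in each case), and with total counts it was 0.05.

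Adding xylobiose to cellobiose gave 298 and 315 CPM in G2X2, against 408 and 434 CPM in G2, again without overlap, as for 63.1% of genes. Here too the added disaccharide and the larger sugar dose cannot be told apart. The difference of -0.46 ± 0.24 was not called (adjusted p = 0.218; 15.3% of genes called). For G2 versus GX, whose libraries did not overlap, as in 69% of genes, it was 0.37 (-0.15 to 0.89, adjusted p = 0.371; 10.5% of genes called), and for G2X2 versus GX it was -0.09 (-0.60 to 0.43; 26.5% of genes called).

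The departure from additivity asks whether the mixture gives what the 2 disaccharides would give together on the log2 scale: (G2X2 minus G2) minus (X2 minus NoCarbon2). For cre-1 it was -1.09 ± 0.34 (95% interval -1.83 to -0.36, adjusted p = 0.0416), so the mixture lay below the sum of the separate changes, and 18.1% of genes were called. G2X2 held the most sugar in total, so the combination and the sugar dose cannot be told apart. The means were 306 CPM in G2X2, 421 CPM in G2, 626 CPM in X2 and 403 CPM in NoCarbon2. This call was weak: it was lost on leaving out any 1 of 13 of the 14 libraries (adjusted p up to 0.118), the exception being NoCarbon2 replicate 1 (-1.57, adjusted p = 0.00321). Without NoCarbon2 replicate 2 the value was -0.74 (adjusted p = 0.0814), and with total counts only it was -0.81 (adjusted p = 0.103).

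In flasks cellulose with xylan was compared with xylan alone. XA held 1% xylan and 1% Avicel and Xylan held 2% xylan, so the presence of Avicel and the lower xylan dose cannot be told apart. cre-1 was 409 and 371 CPM in XA flasks, against 644 and 526 CPM in Xylan flasks, and the XA libraries were both lower; 76% of genes had flask groups that did not overlap. The log2 fold change was -0.58 ± 0.24 (95% interval -1.10 to -0.06, adjusted p = 0.0806), which was not called, while 31.9% of genes were. It was called when only the 4 flask libraries were fitted (-0.58 ± 0.14, adjusted p = 0.0238), and by DESeq2 (-0.60, adjusted p = 0.0499), and on total counts it was -0.31 (adjusted p = 0.326). It was also called without either NoCarbon2 library (-0.58 in each case). Neither library belongs to this comparison, but both enter the spread that all groups share. The XA versus Xylan difference minus the G2 versus NoCarbon2 difference was -0.65 ± 0.34 (adjusted p = 0.159; 33.9% of genes called).

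**Figure D3:**
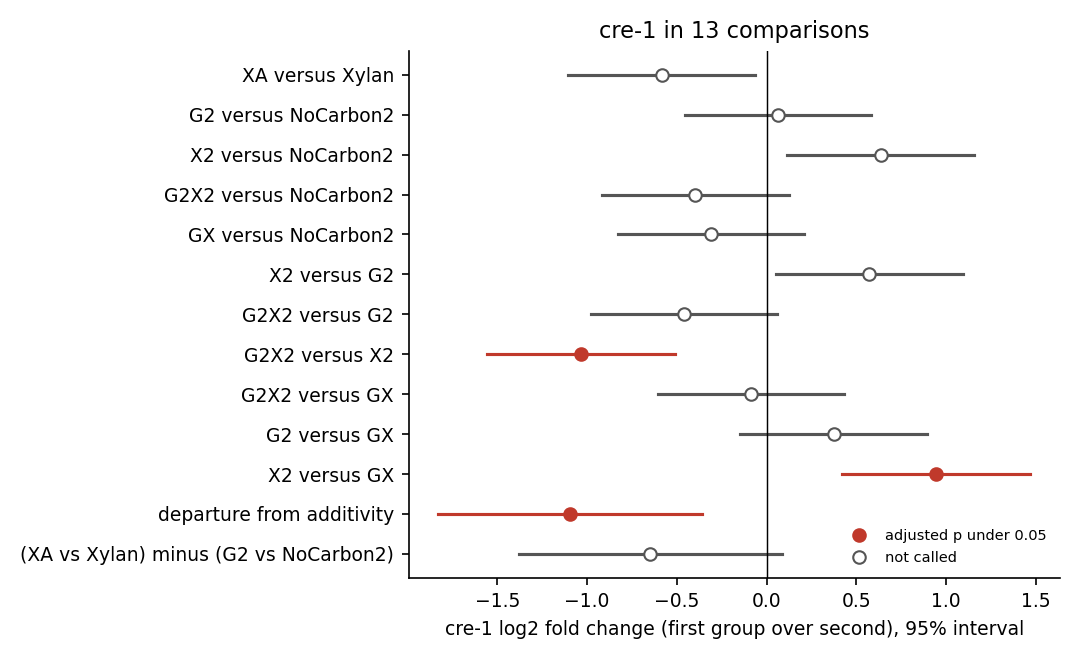
cre-1 log2 fold change (horizontal axis, first named group over the second) with its 95% interval in the 13 comparisons. Filled red points have an adjusted p under 0.05 over all genes tested, open grey points do not. The 3 filled points are G2X2 versus X2 at -1.03, X2 versus GX at 0.95 and the departure from additivity at -1.09.

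Over the 13 comparisons cre-1 was called in 3, and 6 had an unadjusted p under 0.05. Each comparison called 10.5% to 38.6% of all genes. In 7 of the 11 comparisons between 2 groups the libraries did not overlap, as for 62.2% to 76% of genes in each of those 7. In the 3 called comparisons the share of genes with a smaller absolute log2 fold change than cre-1 was 79.6% for G2X2 versus X2, 71.6% for X2 versus GX and 75.3% for the departure from additivity.

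The activators that CRE-1 is set against in other fungi were described next: clr-1 (MYCTH_2298863) and clr-2 (MYCTH_38704), which drive cellulase genes in Neurospora, and xyr-1 (MYCTH_2310145), counterpart of the xylanase regulator of Trichoderma. In G2X2 versus X2, where cre-1 was lower, 2 of the 3 rose and 0 fell (14.6% of all genes rose and 15.4% fell), with a median log2 fold change of 1.42 against 0.01 over all genes. The gene clr-2 was 63.0 and 52.0 CPM in G2X2, against 4.52 and 15.7 CPM in X2 (2.52 ± 0.53, adjusted p = 0.00476). The gene xyr-1 was 90.4 and 89.0 CPM in G2X2, against 34.0 and 33.0 CPM in X2 (1.42 ± 0.28, adjusted p = 0.00355). For clr-1 the difference was -0.40 (adjusted p = 0.294).

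In XA versus Xylan all 3 rose (14.8% of all genes rose and 17.1% fell), with a median of 1.99 against 0.01 over all genes, while cre-1 was at -0.58. The gene clr-1 was 88.8 and 85.1 CPM in XA, against 46.7 and 35.2 CPM in Xylan (1.09 ± 0.28, adjusted p = 0.0123), a call lost without Xylan replicate 2 (adjusted p = 0.112), XA replicate 1 (0.0644) or XA replicate 2 (0.0549). In X2 versus GX, where cre-1 was higher, 0 of the 3 were called by edgeR (20.1% of all genes rose and 18.2% fell), and their log2 fold changes were 0.67 for clr-1, -0.74 for clr-2 and 0.16 for xyr-1 (adjusted p = 0.0793, 0.272 and 0.685). In that comparison clr-1 was called without either NoCarbon2 library (adjusted p = 0.0316 and 0.0313) or without X2 replicate 1 (0.0440), and clr-2 without X2 replicate 2 (-1.91, adjusted p = 0.0253) or on total counts (-1.37, adjusted p = 0.0327). On total counts xyr-1 turned to -0.42. Against NoCarbon2, some regulators were called under sugars where cre-1 was not. Of all genes 26.5% were called with cellobiose, 38.6% with xylobiose, 38.2% with the disaccharide mixture and 24% with glucose plus xylose. The genes clr-2 and xyr-1 rose with cellobiose (3.18 ± 0.53 and 1.69 ± 0.28) and with the disaccharide mixture (2.53 ± 0.52 and 0.87 ± 0.28). Neither was called with xylobiose (0.01 and -0.56, adjusted p = 0.989 and 0.135) or with glucose plus xylose (0.75 and -0.71, adjusted p = 0.307 and 0.0838). The gene clr-1 was lower with every sugar, though its NoCarbon2 libraries lay apart, at 164 and 90.3 CPM. It was called with glucose plus xylose (-1.60 ± 0.29, adjusted p = 0.00161), the disaccharide mixture (-1.34, adjusted p = 0.00293) and xylobiose (-0.93, adjusted p = 0.0200), and not with cellobiose (-0.79, adjusted p = 0.0555).

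**Figure D4:**
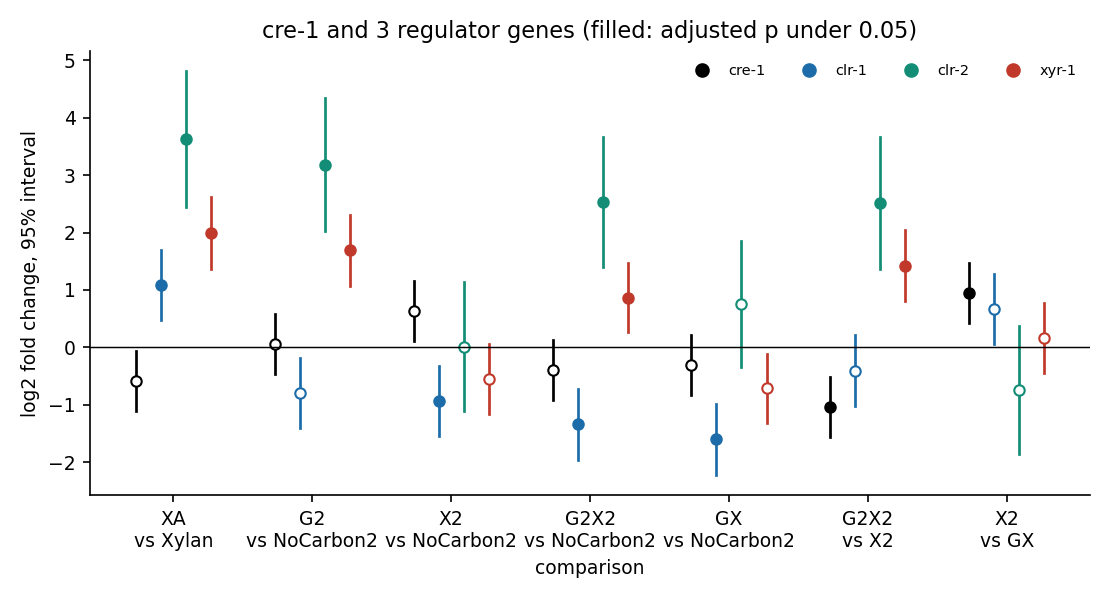
Log2 fold change with 95% interval (vertical axis) of cre-1 and the regulator genes clr-1, clr-2 and xyr-1 in 7 comparisons (horizontal axis). Filled points have an adjusted p under 0.05. The largest rises are those of clr-2, at 3.63 in XA versus Xylan and 3.18 in G2 versus NoCarbon2, where cre-1 lies at -0.58 and 0.06.

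Lists of loci for cellulose breakdown, xylanases, and sugar uptake and use were counted in the 3 comparisons in which cre-1 was called and in XA versus Xylan. Whether CRE-1 represses the loci of these lists was not tested. These lists and the regulators were chosen with earlier results of these data known. Their counts beside the shares of all genes are therefore a description and not a test. In G2X2 versus X2, where 14.6% of all genes rose and 15.4% fell, 9 of 12 cellulose breakdown loci (cellobiohydrolases, endoglucanases, lytic polysaccharide monooxygenases and cellobiose dehydrogenase) rose and 0 fell, with a median of 2.67 against 0.01 over all genes; the largest change was that of LPMO9A (MYCTH_85556), an oxidative cellulose-cleaving enzyme, at 6.12 ± 0.53. Of the 4 xylanase loci 0 rose and 2 fell, with a median of -1.27, and the largest change was -4.07 ± 0.47 at MYCTH_89603. Of 4 loci for sugar uptake and use, 1 rose and 1 fell (median -0.12), and the intracellular beta-glucosidase gene gh1-1 (MYCTH_115968) changed most (2.73 ± 0.32).

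In X2 versus GX, with cre-1 higher, 20.1% of all genes rose and 18.2% fell. There 6 of the 12 cellulose breakdown loci rose and 0 fell (median 1.23 against 0.01 over all genes), led by LPMO9B (MYCTH_80312) at 4.91 ± 0.55. All 4 xylanase loci rose (median 6.94), MYCTH_89603 by 9.40 ± 0.60. Of the 4 uptake and use loci 1 rose, the disaccharide transporter gene cdt-2 (MYCTH_114107), by 5.97 ± 0.48. The called cellulose breakdown loci were thus higher in the group with the higher cre-1 level in X2 versus GX, and higher in the group with the lower cre-1 level in G2X2 versus X2. In XA versus Xylan, where cre-1 was lower without a call and 14.8% of all genes rose and 17.1% fell, 9 of the 12 cellulose breakdown loci rose and 0 fell (median 2.77). Of the 4 xylanase loci 2 rose and 0 fell (median 0.72), counts that fell to 0 without either Xylan library or XA replicate 1 and to 1 without XA replicate 2.

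In the departure from additivity, where cre-1 was at -1.09, 8.58% of all genes were called above 0 and 9.5% below it. Of the 12 cellulose breakdown loci 1 was called above 0 and 3 below it (median -1.45 against 0.07 over all genes), 1 and 1 without G2 replicate 1 or G2X2 replicate 1. LPMO9A (MYCTH_85556) departed most, at 3.74 ± 0.68 (adjusted p = 0.00372), with means of 261 ± 176 CPM (SD, n = 2) in G2X2, 10.8 CPM in G2, 3.78 CPM in X2 and 2.06 CPM in NoCarbon2. It thus went against the list's median. Of the 4 xylanase loci 0 were called above 0 and 1 below it, MYCTH_89603 at -2.69 ± 0.61 (adjusted p = 0.0105); leaving out X2 replicate 1 gave 2 below 0, and leaving out X2 replicate 2 gave 1 in each direction.

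Of the 4 uptake and use loci 0 were called above 0 and 2 below it (median -1.26), and 1 of the 4 was called without NoCarbon2 replicate 2, G2 replicate 1, X2 replicate 2 or either G2X2 library. The largest departure in this list was that of glt-1 (MYCTH_108924), counterpart of a glucose transporter gene of Neurospora, at -4.18 ± 0.79 (adjusted p = 0.00491). Of the regulators 0 of 3 were called. Their values were 0.39 for clr-1, -0.66 for clr-2 and -0.27 for xyr-1 (adjusted p = 0.532, 0.552 and 0.676), and each turned direction under 1 alternative.

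Reads from neighbouring genes were checked because the strand setting of the counting is not given in the sources used here. In the NCBI reference table for assembly ASM22609v1 the entries beside cre-1 on both sides are tRNA genes that are not in the count table. The nearest genes in the count table on the 2 sides, MYCTH_2310081 and MYCTH_2310088, do not overlap cre-1 there. MYCTH_2310081 was called in the same direction as cre-1 in G2X2 versus X2 (-1.45 ± 0.24) and in X2 versus GX (1.20 ± 0.24). Unlike cre-1 it was also lower in G2 versus NoCarbon2 (-1.27 ± 0.24, adjusted p = 0.00181), where the libraries had 640 and 522 CPM in G2, against 1220 and 1587 CPM in NoCarbon2. MYCTH_2310088 was lower in X2 versus GX (-1.12 ± 0.20, adjusted p = 0.00101), the opposite direction from cre-1. In G2X2 versus X2 it was at 0.57 ± 0.20 (adjusted p = 0.0442), a call lost under both the DESeq2 and upper-quartile size factors (adjusted p = 0.0523 and 0.0530) and on leaving out single libraries (0.34, adjusted p = 0.243 without X2 replicate 2).

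The genes with the pattern most like that of cre-1 were taken by the correlation of log2 CPM over the 14 libraries, among 5858 other genes with a mean of at least 20 CPM. The points share library, scaling and group, so the coefficients are a description. MYCTH_2294499 was closest (r = 0.908, rho = 0.908), followed by MYCTH_2314597 (r = 0.887), MYCTH_2135162 (r = 0.879), MYCTH_112916 (r = 0.879) and MYCTH_2315227 (r = 0.877). The median gene had r = 0.01. The reference table gives no gene names, so the 5 are given by locus only.

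MYCTH_2314597 had group means close to those of cre-1 in shape, with 619 CPM in X2 and 572 CPM in Xylan, against 359 CPM in G2X2 and 302 CPM in GX. MYCTH_2135162 had a wider range, with 857 CPM in Xylan and 491 CPM in X2, against 187 CPM in G2X2 and 175 CPM in GX. Its highest group was Xylan and its lowest GX, where those of cre-1 were X2 and G2X2, and it was the closest gene on the 10 plate libraries alone (r = 0.972). The opposite pattern was closest in MYCTH_2300363 (r = -0.943), at 43.9 CPM in X2 and 46.3 CPM in Xylan, against 59.4 CPM in G2X2 and 59.1 CPM in GX. MYCTH_2298143 and MYCTH_2311298 followed (both r = -0.889). Among the listed pathway loci with a mean of at least 20 CPM, r ran from -0.473 for gh1-1 to 0.538 for the xylanase locus MYCTH_89603.

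**Figure D5:**
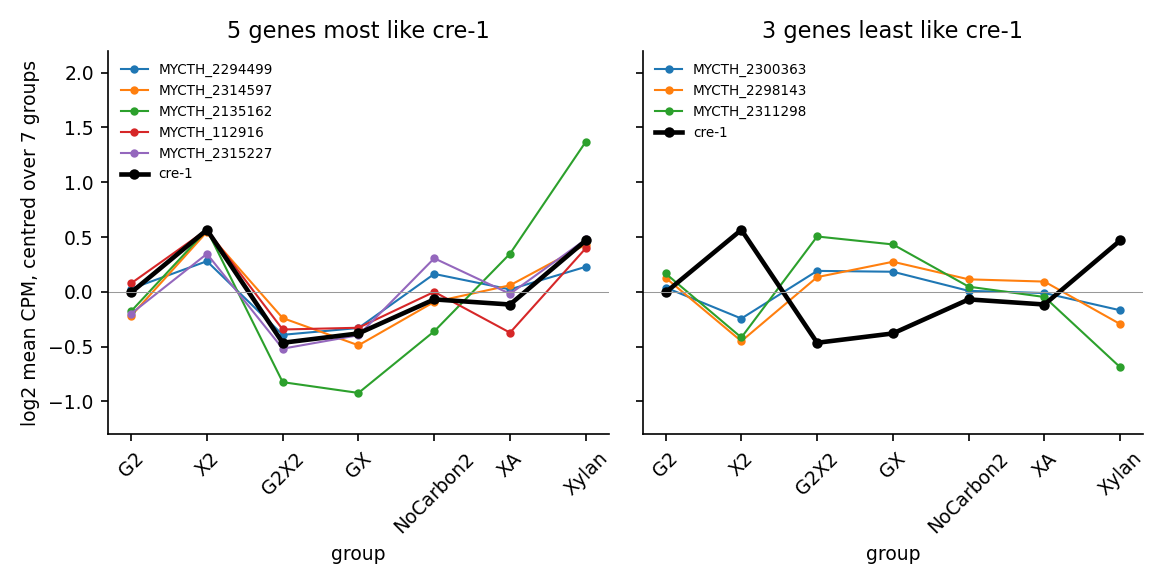
Log2 mean CPM centred over the 7 groups (vertical axis) for cre-1 (black) and the 5 genes with the highest (left) and the 3 with the lowest (right) correlation to it over 14 libraries. cre-1 and the 5 most similar genes lie higher in X2 and Xylan than in G2X2 and GX, and the 3 least similar genes lie lower there.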

How the data were processed

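RNA from 14 mycelium libraries (7 groups of 2) had been sequenced. The authors deposited counts of reads per gene, not normalized. Per the submitters' processing notes, TopHat2 2.0.8b and HTSeq 0.13.5 were among the tools; information on build, annotation and strand is not given in the sources used here. Groups came from sample titles; XA in the titles is AX in the count table.

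The counts were fitted in edgeR 4.0.16 (R 4.3.3): filterByExpr with a minimum count of 10 (8567 of 9110 genes kept, 543 removed), TMM scaling, and 1 robust quasi-likelihood model with 7 group means (7 residual degrees of freedom). Tests are two-sided, with Benjamini-Hochberg adjusted p over all genes. SEs were derived from each log2 fold change and F statistic, and log2 CPM for correlations used a prior count of 2. In all, 13 comparisons and 2 tests over several groups were made.

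Alternatives were DESeq2 1.42.0, other scalings, no filter, 1 vessel only, a replicate block and leaving out each library. Simulated counts for G2 versus NoCarbon2 (8527 genes) gave calls for 53 of 100 genes changed by 1 on the log2 scale and for 99 of 100 changed by 2. The changed genes had at least 20 CPM in NoCarbon2, and 8327 genes were left unchanged. In the real comparison 26.5% of genes were called, so the simulation does not give the recovery there. The gene, the lists and the comparisons were chosen with earlier results of these data known. Named genes are cre-1, the 5 most and 3 least correlated genes, the nearest genes in the table (the rule gave the adjacent tRNA genes, so these were chosen afterwards), the 3 regulators, and the locus with the largest change in each other list. Gene names follow published locus assignments as remembered; 9087 of 9110 identifiers matched the reference table, which gives no names. Sequences, levels per gene length and a zinc finger family are not analysed here.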

Additional observations from a re-analysis of the deposited data

Results flagged for a closer look

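The departure of cre-1 from additivity on plates, -1.09 on the log2 scale, was listed because the effect of xylobiose differed with and without cellobiose: xylobiose with cellobiose present gave -0.46, and xylobiose alone against NoCarbon2 gave 0.64. The test of the difference itself passed with edgeR (adjusted p = 0.0416) and DESeq2 (adjusted p = 0.0121). Its call was lost in 15 of the 21 alternatives, among them total counts only and plate libraries only. The part of the spread between the NoCarbon2 libraries in the departure (517 and 289 CPM) was not tested beyond leaving each out, which gave -1.57 and -0.74.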

How the results depend on the processing

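For the 15 results on cre-1, 311 alternative values were computed; 275 kept the direction and the side of the threshold, 21 lost a call, 11 gained one and 4 turned direction. Scaling by total counts, added after the TMM factors were seen, gave 0.38 for X2 versus GX, -0.81 for the departure from additivity, and F of 2.37 over the 7 groups and 3.12 over the plate groups. With plate libraries only the departure was -1.06 (adjusted p = 0.0840), and with flask libraries only XA versus Xylan was -0.58. DESeq2 gave -0.60 for XA versus Xylan and 0.62 for X2 versus NoCarbon2. Leaving out 1 library at a time, with the lone library left in a group assumed to vary like the others, gave -0.74 to -0.41 for XA versus Xylan, -0.29 to 0.54 for G2, 0.28 to 1.11 for X2, -0.75 to 0.082 for G2X2 and -0.67 to 0.17 for GX versus NoCarbon2. It gave 0.43 to 0.65 for X2 versus G2, -1.11 to -0.92 for G2X2 versus X2, -0.18 to 0.0097 for G2X2 versus GX, 0.80 to 1.04 for X2 versus GX, -1.57 to -0.74 for the departure, -1.13 to -0.29 for the flask minus plate difference, and F of 3.80 to 12.6 over the 7 groups and 3.24 to 14.1 over the plate groups. The cause of these shifts was not tested.

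Replicate numbers were not treated as pairs in the main model. Deviations of same-numbered libraries correlated at r = -0.16 to 0.21 over the 21 pairs of groups, and over 0.1 in 2 of them. These correlations cannot exclude a batch shared by some libraries. With the replicate block no call on cre-1 changed; the departure was -1.11 (adjusted p = 0.0440), and X2 versus NoCarbon2 was 0.65 (adjusted p = 0.0502).

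Counts of called genes moved more: without single libraries they ran from 1203 to 3139 for XA versus Xylan (2731 with all), 1150 to 2602 for G2 (2274) and 995 to 2366 for GX versus NoCarbon2 (2060). They ran from 1525 to 3582 for X2 versus G2 (3213), 409 to 1689 for G2X2 versus G2 (1308), 1369 to 2977 for G2X2 versus X2 (2573), 1081 to 2663 for G2X2 versus GX (2271), 219 to 1154 for G2 versus GX (899), 1852 to 3604 for X2 versus GX (3277), 778 to 1986 for the departure (1549) and 1849 to 3321 for the flask minus plate difference (2908). For the other named loci, 609 alternative values for 29 differences were computed: 582 kept direction and call, 18 lost a call, 5 gained one and 4 turned. On total counts xyr-1 was -0.42 in X2 versus GX and 0.029 in the departure; without single libraries the departure ran from -0.11 to 0.75 for clr-1 and from -1.27 to 0.49 for clr-2, turning without NoCarbon2 replicate 1 and X2 replicate 2 in that order. Of the 5 genes most like cre-1, 4 stayed with the root-mean-square difference and 1 on plate libraries only. The level per gene length was not run.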

Other observations

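The count of cre-1 divided by that of a regulator gene within a library does not depend on scaling. For xyr-1 this ratio was 2.35 and 3.02 in G2, 3.30 and 3.53 in G2X2, 10.6 and 11.1 in GX and 19.7 and 17.7 in X2, against 8.92 and 7.15 in NoCarbon2; in flasks it was 2.83 and 3.23 in XA, against 14.8 and 24.3 in Xylan. For xyr-1 on plates, G2 and G2X2 thus lay below NoCarbon2 in every library, and GX and X2 above it. The mean of xyr-1 itself ran from 30.0 CPM in GX to 159 CPM in G2, and that of cre-1 from 306 to 626 CPM. The other regulators gave other orders. For clr-2 the ratio was 17.5 and 21.4 in GX, below the 55.3 and 27.5 of NoCarbon2, and X2 overlapped NoCarbon2 at 148 and 37.2. For clr-1 every sugar group on plates lay above NoCarbon2. The ratios are of counts and take no account of gene length, so their size says nothing of which transcript was more abundant.

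For clr-1 the ratio was 3.15 and 3.21 in the 2 NoCarbon2 libraries, although cre-1 differed 1.79-fold between them, and clr-1 stood at 164 and 90.3 CPM. In X2, by contrast, it was 12.6 and 7.29.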
